A study of Mus musculus with 6 samples.

Results

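Type IV collagen and the proteins that tie it into basement membranes were examined as 10 genes, taken by name: the collagen chain genes Col4a1 to Col4a6, the nidogen genes Nid1 and Nid2, and the heparan sulfate proteoglycan genes Agrn (agrin) and Hspg2 (perlecan). All 10 were measured, among 30702 named genes, each by 1 probe set that carries no other gene's symbol. The samples were 6 total RNA preparations hybridized to Affymetrix arrays: 3 from a wildtype mouse podocyte line and 3 from a podocyte line in which Nck1 and Nck2 were knocked out. Podocytes are the epithelial cells on the outer side of the glomerular filter, and Nck1 and Nck2 are adaptor proteins that connect tyrosine-phosphorylated membrane proteins to actin assembly. Both lines were conditionally immortalized and were kept on a type I collagen coating for 10 days of differentiation before RNA was taken. Each genotype was represented by 1 line with 3 independent replicates, so that genotype and line cannot be told apart.

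Type IV collagen is the network-forming collagen of basement membranes. Its chains assemble as trimers: a widely expressed form made of the alpha 1 and alpha 2 chains, an alpha 3, alpha 4 and alpha 5 form that podocytes lay down in the mature glomerular basement membrane, and a form with alpha 5 and alpha 6 chains found in other basement membranes such as that of Bowman's capsule. The genes lie in the genome as head-to-head pairs, transcribed away from a common start region. Mutations of Col4a3, Col4a4 or Col4a5 cause Alport syndrome. Nidogens bind both laminin and type IV collagen, and perlecan and agrin carry the heparan sulfate chains of the membrane, agrin being the main one in the glomerulus.

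In the RefSeq annotation of mouse assembly GRCm38.p6, the Col4a1 and Col4a2 gene bodies on chromosome 8 overlapped at their starts by 85 bases, and those of Col4a4 and Col4a3 on chromosome 1 by 114 bases. Col4a6 and Col4a5 on chromosome X were 1274 bases apart. The start regions below belong to these pairs, which went apart from each other in the comparison of the lines. Each sequence runs 5′ to 3′ on its gene's strand from 250 bases before to 50 after the start site that the RefSeq promoter table uses, and capitals mark matches to the short motifs named after them.

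Col4a1 (GRCm38.p6, chr8:11312777-11313076, minus strand): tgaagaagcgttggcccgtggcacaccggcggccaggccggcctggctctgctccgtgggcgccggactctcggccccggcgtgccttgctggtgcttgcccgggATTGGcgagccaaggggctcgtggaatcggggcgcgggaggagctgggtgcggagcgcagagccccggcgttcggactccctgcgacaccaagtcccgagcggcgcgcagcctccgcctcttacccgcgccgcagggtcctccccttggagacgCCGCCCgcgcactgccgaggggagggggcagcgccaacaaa
Col4a2 (GRCm38.p6, chr8:11312555-11312854, plus strand): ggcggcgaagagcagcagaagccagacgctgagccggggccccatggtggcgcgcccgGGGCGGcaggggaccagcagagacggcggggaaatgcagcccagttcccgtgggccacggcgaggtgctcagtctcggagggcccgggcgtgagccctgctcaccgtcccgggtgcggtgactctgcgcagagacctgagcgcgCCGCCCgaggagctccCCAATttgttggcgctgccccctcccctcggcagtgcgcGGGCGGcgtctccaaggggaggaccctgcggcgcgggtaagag
Col4a4 (GRCm38.p6, chr1:82586800-82587099, minus strand): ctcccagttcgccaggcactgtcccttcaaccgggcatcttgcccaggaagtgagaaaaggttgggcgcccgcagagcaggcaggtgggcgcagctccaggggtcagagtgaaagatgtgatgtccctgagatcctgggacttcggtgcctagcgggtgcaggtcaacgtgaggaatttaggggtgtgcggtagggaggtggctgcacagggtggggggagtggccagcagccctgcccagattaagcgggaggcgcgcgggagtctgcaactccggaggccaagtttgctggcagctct
Col4a5 (GRCm38.p6, chrX:141475169-141475468, plus strand): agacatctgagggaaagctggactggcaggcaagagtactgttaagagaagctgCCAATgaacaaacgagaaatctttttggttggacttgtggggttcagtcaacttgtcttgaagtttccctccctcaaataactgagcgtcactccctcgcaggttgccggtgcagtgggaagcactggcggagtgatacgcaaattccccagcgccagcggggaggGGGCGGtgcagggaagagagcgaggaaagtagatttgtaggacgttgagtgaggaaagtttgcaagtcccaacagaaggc
Col4a6 (GRCm38.p6, chrX:141474027-141474326, minus strand): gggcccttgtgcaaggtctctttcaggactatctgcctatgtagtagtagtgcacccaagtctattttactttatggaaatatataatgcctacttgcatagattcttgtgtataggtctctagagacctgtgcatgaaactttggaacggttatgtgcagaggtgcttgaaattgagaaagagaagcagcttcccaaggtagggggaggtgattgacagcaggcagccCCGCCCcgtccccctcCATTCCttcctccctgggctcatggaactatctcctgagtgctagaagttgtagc

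These start sites differ from the outer ends of the gene bodies, which set the overlaps and the gap given above, for Col4a1, Col4a4, Col4a5 and Col4a6. The Col4a1 and Col4a2 windows shared 78 bases, and the first base of the Col4a3 gene body, 82586921, lay inside the Col4a4 window. The 5 windows, with none available for Col4a3, differed in base composition. Col4a1 and Col4a2 had 37 and 33 CpG dinucleotides in 300 bases and 74.0% and 73.7% G or C, against a median of 7 CpG and 52.7% over 32851 windows of that length. Col4a4 had 14 CpG and 63.3%, Col4a5 had 11 and 52.7%, and Col4a6 had 3 and 48.3%. The motifs were searched on both strands. The GC box GGGCGG was present in the Col4a1, Col4a2, Col4a5 and Col4a6 windows and in 35.7% of all windows, and none was found in the Col4a4 window. The letters CCAAT were found in Col4a1, Col4a2 and Col4a5 and in 37.4% of all windows. GGAATG, the core bound by TEAD factors, was found in Col4a6 and in 14.7% of all. TATAAA (13.6% of all windows), CCCTNCCCC (9.48%), the AP-1 letters TGANTCA (7.81%), the CArG box bound by serum response factor (1.63%) and GTCTAGAC (0.213%), a palindrome bound by SMAD proteins, were in none of these 5 windows.

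Before the members, the labels and the cells were checked. Nck1 was lower in the knockout line by -0.51 (SE 0.07, limma adjusted p = 0.00391), and Nck2 was at 7.48 and 7.24 and did not pass (adjusted p = 0.0941). Both Nck2 means were inside the background range, that is, no higher than 7.78, the highest mean among the probe sets placed on the array to measure background. The median of those probe sets was 4.48, and 62.9% of all genes had a mean over the 6 arrays inside this range. No detection call was used, so lying inside this range does not show that a gene is silent. Xist was at 12.19 in wildtype and 6.01 in knockout, while the Y-linked Uty was at 5.21 and 9.90 and Kdm5d at 6.12 and 8.96, although Eif2s3y, at 4.49 and 4.50, was inside the background range in both, so the lines also differed in their sex chromosome transcripts. Of 10 measured podocyte markers, 1 was higher (Plce1) and 9 did not pass, and 4 of them, Nphs1, Wt1, Ptpro and Tcf21, had both means inside the background range. Among markers of other kidney cells, 2 of 6 mesangial and pericyte genes were higher, Acta2 by 2.83 and Pdgfrb by 2.36, with the mean level of that list between 7.27 and 7.40 on the wildtype arrays and between 8.21 and 8.27 on the knockout arrays, 4 of the 6 being inside the background range in both lines. Of 7 tubular markers 4 were lower. Aqp1 went from 12.92 to 9.42 (a log2 difference of -3.50) and Cdh16 from 11.60 to 10.10 (-1.50). Pax8 went from 11.42 to 10.69 (-0.73) and Lrp2 from 11.76 to 11.39 (-0.36). The mean of the tubular list lay between 9.54 and 9.66 in wildtype and between 8.69 and 8.77 in knockout, 2 of the 7 being inside the background range in both lines. None of 6 endothelial markers passed, and all 6 had both means inside the background range. Of 5 parietal epithelial markers Cd44 was higher and Cldn1 lower, and of 4 immune markers Cd68 was higher. The part of these shifts in the results below was not tested. Within a line the arrays correlated at 0.993 to 0.997 across genes, and precision is limited by there being 3 arrays a line.

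The question for the members was how the type IV collagen chains and their linkers differed between the lines. Of the 10 genes, 5 rose in knockout (Col4a2, Col4a1, Nid1, Nid2 and Agrn), 3 fell (Col4a6, Col4a5 and Hspg2) and 2, Col4a3 and Col4a4, did not pass (limma, adjusted p under 0.05 over all genes). Over all genes 12.0% passed, 5.05% as higher and 6.90% as lower. With each chromosome's median taken off, 2365 genes were higher and 1717 lower, in place of 1551 and 2118. Those medians came from protein-coding genes with a mean no lower than the all-gene median, but were taken off dimmer genes too. The all-gene median log2 difference thereby became 0.05 in place of 0.01, so these counts carry that shift. Passing with at least a 2-fold change held for 4 members and for 1.67% of all genes. The median log2 difference was 0.26 over the members and 0.01 over all genes. The 3 values of one line lay wholly apart from those of the other for 9 members and for 27.4% of all genes.

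**Figure D1:**
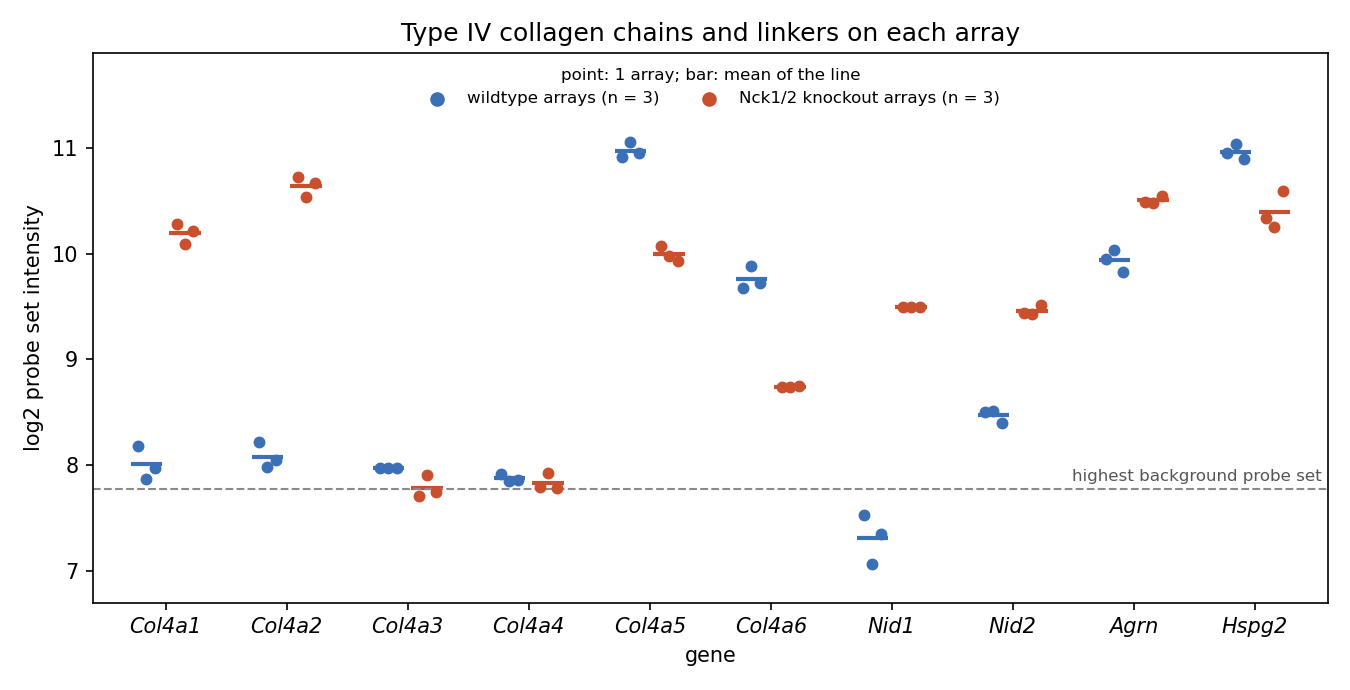
Log2 probe set intensity (vertical axis) of the 10 genes (horizontal axis) on each of 3 wildtype and 3 Nck1/2 knockout arrays, with points for arrays, bars for line means and a dashed line at the highest background probe set, 7.78. Levels can be compared between the lines for a gene but not between genes. The lines overlap for Col4a4 alone, and the wildtype values of Nid1 lie below the dashed line.

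Col4a1 encodes the alpha 1 chain, which with alpha 2 makes the widely expressed trimer. Its log2 intensity was 8.18, 7.87 and 7.98 on the wildtype arrays and 10.29, 10.09 and 10.21 on the knockout arrays. All knockout values were above all wildtype values, and the lowest of them was 1.91 above the highest wildtype value. The log2 difference was 2.19 (SE 0.09, adjusted p = 5.1e-05), a 4.55-fold rise. Col4a2, for the alpha 2 chain, was at 8.22, 7.98 and 8.05 in wildtype and at 10.73, 10.53 and 10.67 in knockout. Its rise of 2.56 (SE 0.08, adjusted p = 1.8e-05), or 5.91-fold, was the largest of the 10 and placed it 50th among all genes ordered from the highest log2 difference, with Col4a1 66th. The wildtype means of this pair, 8.01 ± 0.15 and 8.08 ± 0.12 (SD, n = 3), stood little above the background range.

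Neither gene of the pair that serves the mature glomerular network passed. Col4a3, for the alpha 3 chain, was at 7.98 on all 3 wildtype arrays, identical to the last deposited digit, and at 7.70, 7.91 and 7.74 in knockout. The knockout values were all lower, by at least 0.07, but the log2 difference of -0.19 did not pass (95% confidence interval -0.34 to -0.04, adjusted p = 0.124). Identical values within a line understate the spread, and the knockout mean of 7.79 stood at the top of the background range. Leaving out knockout replicate 2, the array with the highest Col4a3 value in that line, gave -0.25 and an adjusted p of 0.0476, while taking off chromosome medians gave -0.13 and an adjusted p of 0.26. Col4a4, for the alpha 4 chain, was at 7.92, 7.85 and 7.86 in wildtype and at 7.79, 7.92 and 7.79 in knockout. These overlapped, with a difference of -0.04 (95% confidence interval -0.18 to 0.09, adjusted p = 0.789), and 0.02 with chromosome medians taken off. Lmx1b, a transcription factor gene of podocytes known to be needed for expression of this pair in the glomerulus, was at 7.99 and 7.95 and did not pass (adjusted p = 0.843).

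The X-linked pair fell. Col4a5, whose alpha 5 chain joins both the glomerular trimer and the alpha 6 form, was at 10.91, 11.06 and 10.95 in wildtype and at 10.07, 9.98 and 9.94 in knockout. The lines were apart by at least 0.84, and the log2 difference was -0.98 (SE 0.06, adjusted p = 0.00023), 1.97-fold lower. Col4a6 was at 9.68, 9.89 and 9.73 in wildtype and at 8.74, 8.74 and 8.75 in knockout, where the SD was only 0.003. Its difference was -1.02 (SE 0.06, adjusted p = 0.00022), 2.03-fold lower, with no overlap. Beside these stand the sex chromosome transcripts given above and the other X-linked genes. Of 297 X-linked protein-coding genes in the brighter part of the array, meaning a mean no lower than the all-gene median, 107 (36.0%) were called lower and 21 higher, and their median log2 difference was -0.21, against -0.02 for 10975 autosomal genes chosen the same way. Col4a6 and Col4a5 were the 10th and 13th lowest of the 297, whose lower quartile was -0.49. With the X chromosome's median taken off, the differences were -0.77 for Col4a5 (adjusted p = 0.00066) and -0.81 for Col4a6 (adjusted p = 0.000599). The effects of the knockout and of the lines' sex chromosomes on this pair cannot be told apart.

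**Figure D2:**
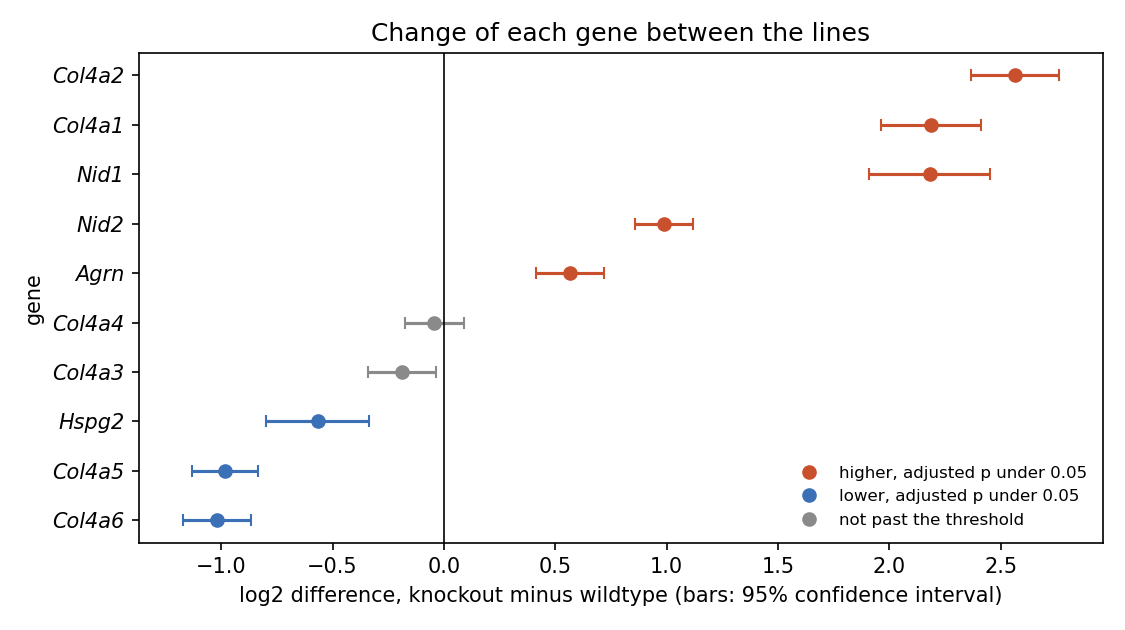
Log2 difference between the lines (horizontal axis, knockout minus wildtype) for each of the 10 genes (vertical axis), with limma's 95% confidence intervals as bars and colours for the call at an adjusted p under 0.05. Differences run from -1.02 for Col4a6 to 2.56 for Col4a2, and the interval of Col4a4 includes 0.

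The head-to-head pairs were then set against each other. For each array the log2 value of one gene of a pair was taken from that of the other, and the change of this difference between the lines was tested by an exact two-sided permutation test, which with 3 against 3 arrays cannot give a p below 0.1. In all, 8 such comparisons were made, and adjusted over them the p-values ran from 0.114 to 0.4. None therefore could pass a threshold of 0.05. Col4a2 changed more than Col4a1 by 0.38 (SE 0.02, exact permutation p = 0.1), with knockout arrays at 0.37, 0.37 and 0.39 relative to the wildtype mean and wildtype arrays between -0.04 and 0.04. Both genes rose, and no knockout array overlapped the wildtype arrays in this difference. Col4a4 and Col4a3 differed in their change by 0.15 (SE 0.03, exact permutation p = 0.1), again without overlap, a value that carries the identical wildtype values of Col4a3. Col4a5 and Col4a6 differed by 0.04 (SE 0.05, exact permutation p = 0.4), their arrays overlapped, and the sign turned without knockout replicate 1 (-0.00101).

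**Figure D3:**
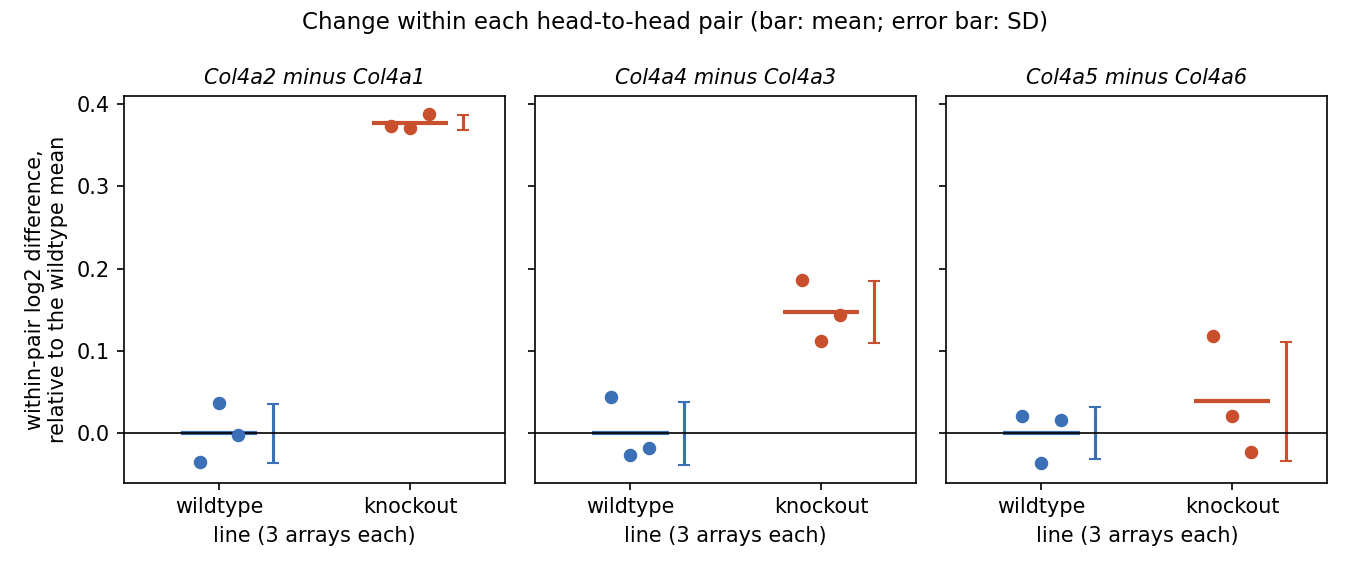
Difference between the 2 genes of each head-to-head pair on each array (vertical axis, log2, set to 0 at the wildtype mean) for 3 wildtype and 3 knockout arrays, with bars for means and error bars for SD. The knockout arrays lie at 0.37 to 0.39 for Col4a2 minus Col4a1 and overlap the wildtype arrays for Col4a5 minus Col4a6.

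Differences between the pairs were larger than those within them. The mean of Col4a1 and Col4a2 rose, and its log2 change lay 2.49 above that of the Col4a3 and Col4a4 mean (SE 0.13). It lay 3.38 above that of the Col4a5 and Col4a6 mean (SE 0.14), which fell. The mean of Col4a5 and Col4a6 fell by 0.88 more than that of Col4a3 and Col4a4 (SE 0.09). In each of these 3 comparisons the arrays of the lines did not overlap, at an exact permutation p of 0.1. Col4a3 and Col4a4 stood near the top of the background range in both lines, so a larger fall of this pair might not show. The limit given above for the X-linked pair, from the lines' sex chromosomes, applies to the comparisons that include it.

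The genes on either side of each pair were looked at for comparison, as the 3 nearest measured protein-coding genes on each side in RefSeq order. Around Col4a1 and Col4a2, 1 of 6 passed, the cysteinyl-tRNA synthetase gene Cars2 at -0.22 (adjusted p = 0.0384, a call lost without any single array), and the 6 ran from -0.22 to 0.31. Around Col4a4 and Col4a3, 1 of 6 passed, the insulin receptor substrate gene Irs1, which rose from 9.23 to 10.61, a log2 difference of 1.38 (SE 0.09, adjusted p = 0.00022). Around Col4a6 and Col4a5, 3 of 6 were lower: Atg4a, for an autophagy protease, by -0.67 (adjusted p = 0.00141), the nuclear export gene Nxt2 by -0.57 (adjusted p = 0.0166, with both means inside the background range) and the proteasome subunit gene Psmd10 by -0.36 (adjusted p = 0.0297). The calls of Nxt2 and Psmd10 were lost with chromosome medians taken off (adjusted p = 0.0778 and 0.287), and without some single arrays. Each pair had an insulin receptor substrate gene among these neighbours, and the other two did not pass: Irs2 beside Col4a1 was at 10.78 and 11.10 (adjusted p = 0.0697) and Irs4 beside Col4a5 at 6.32 and 6.33, inside the background range.

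**Figure D4:**
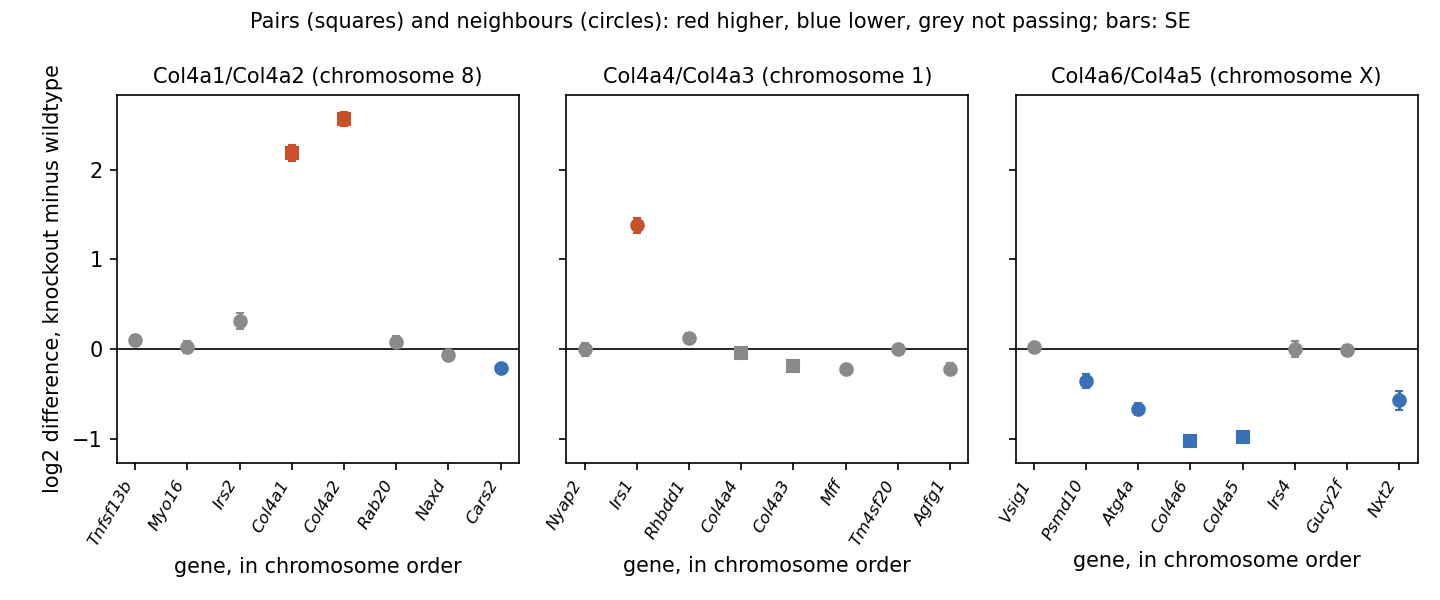
Log2 difference between the lines (vertical axis, knockout minus wildtype) for each head-to-head pair (squares) and the 3 nearest measured protein-coding genes on each side (circles), in chromosome order, with limma standard errors as bars. Col4a1 and Col4a2 stand at 2.19 and 2.56 between neighbours from -0.22 to 0.31.

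Both nidogen genes rose. Nid1, which links laminin to type IV collagen, was at 7.53, 7.07 and 7.35 in wildtype and at 9.49, 9.49 and 9.50 in knockout. Knockout replicates 1 and 2 had the same Nid1 value, which understates the spread (SD 0.003). Its log2 difference was 2.18 (SE 0.11, adjusted p = 0.000122), a 4.53-fold rise from a wildtype mean inside the background range, so that the size depends on a level not separated from background. Nid2, the related gene on chromosome 14, was at 8.51, 8.51 and 8.40 and at 9.44, 9.43 and 9.52. It rose by 0.99 (SE 0.05, adjusted p = 0.000145), 1.99-fold. The change of Nid1 exceeded that of Nid2 by 1.19 (SE 0.15, exact permutation p = 0.1), with no overlap of the arrays.

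The heparan sulfate proteoglycans went in opposite directions. Agrn was at 9.95, 10.04 and 9.83 in wildtype and at 10.49, 10.48 and 10.55 in knockout, a rise of 0.57 (SE 0.06, adjusted p = 0.00249). Hspg2 was at 10.95, 11.04 and 10.89 in wildtype and at 10.34, 10.25 and 10.59 in knockout, a difference of -0.57 (SE 0.10, adjusted p = 0.0121). The lines did not overlap for either gene. Knockout replicate 3 was the nearest of its line to wildtype for Hspg2, 0.30 below the lowest wildtype value. The call of Hspg2 was lost without wildtype replicate 1 (adjusted p = 0.0522), wildtype replicate 2 (0.0549) or knockout replicate 1 (0.0609), while its difference stayed between -0.67 and -0.50 with any single array left out. The change of Agrn exceeded that of Hspg2 by 1.13 (SE 0.09, exact permutation p = 0.1).

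Of 18 measured genes of the machinery that folds, modifies and exports type IV collagen, 2 rose, 1 fell and 15 did not pass, a share called near the 12.0% of all genes. The median log2 difference was 0.05, and 2 of the 18 had both means inside the background range. Plod1, a collagen lysyl hydroxylase, rose by 0.46 (SE 0.08) and the collagen chaperone gene Serpinh1 by 0.25 (SE 0.05), both calls being lost on leaving out some single arrays. The size for Serpinh1 depended on the probe set: it was 0.37 as the mean of its probe sets and 0.50 for the one of highest variance. Mia2, which acts in the export of collagen from the endoplasmic reticulum, fell by 0.46 on the log2 scale (SE 0.07), and by 0.27 as the mean of its probe sets (adjusted p = 0.0236). The prolyl hydroxylase genes P4ha1 and P4hb stood at -0.07 and -0.01, with adjusted p of 0.404 and 0.942.

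Of 15 genes that crosslink the network or act in its turnover, inhibitors included, 4 were higher and 5 lower (median -0.02). Over all genes 5.05% were higher and 6.90% lower. In both lines 3 of the 15 had means inside the background range. The lysyl oxidase genes Lox and Loxl4 fell, by -2.42 (SE 0.14) and -1.40 (SE 0.08), the former to a knockout mean inside the background range, while Loxl3 rose by 0.55 (SE 0.08), its wildtype mean being inside the background range. Pxdn, the peroxidase that forms the sulfilimine crosslinks of type IV collagen, was chosen after its value was seen and stood at 10.01 ± 0.05 in wildtype and 9.58 ± 0.06 in knockout, a difference of -0.42 (SE 0.05, adjusted p = 0.00353). The membrane protease gene Mmp14 rose by 0.82 (SE 0.06) and the inhibitor gene Timp3 by 0.41 (SE 0.05), and the gelatinase gene Mmp2, whose substrates include type IV collagen, changed by -1.01 (SE 0.06).

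Of 19 genes listed as basement membrane receptors, syndecans and glypicans included, 6 fell, 1 rose and 12 did not pass, with a median of -0.04. The shares over all genes were 6.90% lower and 5.05% higher. In both lines 6 of the 19 had means inside the background range. The glypican gene Gpc4 changed by -1.05 (SE 0.05), the type IV collagen-binding receptor gene Adgrg6 by -1.04 (SE 0.05) and Dag1, the dystroglycan that binds perlecan, agrin and laminin, by -0.68 (SE 0.07). Gpc4 is itself X-linked, and its size depended on the probe set. It was -1.24 as the mean of its probe sets and -1.44 for the one of highest variance. Sdc3, a syndecan, rose by 0.32 (SE 0.05). The integrin subunit genes Itgb1 and Itga3 stood at -0.05 and 0.04 and did not pass.

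Among 10 laminin chain genes, partners of the nidogens and agrin, 1 rose, 2 fell and 7 did not pass, beside 12.0% of all genes called. In both lines 5 of the 10 had means inside the background range. Lama5, of the mature glomerular laminin, rose by 0.34 (SE 0.06), a call lost without wildtype replicate 3 (adjusted p = 0.0593). Lama1, of early basement membranes, changed by -1.48 (SE 0.07) to a mean inside the background range, and Lamb1 by -0.36 (SE 0.05). Of 19 other basement membrane components 2 rose and 5 fell, beside 5.05% and 6.90% of all genes, and 10 had both means inside the background range. Tinag, for a tubular basement membrane protein, changed by -2.67 (SE 0.14) to a background-range mean, Fras1 by -1.29 (SE 0.09) and the netrin gene Ntn1 by -1.25 (SE 0.06), beside the lower tubular markers given above. Ntn4 rose by 0.34 (SE 0.06) and the fibulin gene Fbln1 by 0.42 (SE 0.09), both calls being lost without any 1 of 4 arrays. The wildtype mean of Fbln1 was inside the background range, and its call was also lost with chromosome medians taken off (0.35, adjusted p = 0.0517).

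Heparan sulfate synthesis, which supplies the chains of agrin and perlecan, had 2 of 24 genes higher and 2 lower, a share called near the 12.0% of all genes. In both lines 10 of the 24 had means inside the background range. The chain-starting and chain-lengthening genes Extl3 and Ext1 rose by 0.97 (SE 0.09) and 0.32 (SE 0.05). Xylt2, which adds the first sugar, fell by 0.30 on the log2 scale (SE 0.05) and the sulfotransferase gene Hs3st1 by 0.23 (SE 0.04), the latter losing its call with the replicate block (adjusted p = 0.0551). Xylt2 had the same value, 8.06, on all 3 knockout arrays, which understates its spread. The calls of Ext1, Xylt2 and Hs3st1 were lost without some single arrays, and that of Xylt2 also with chromosome medians taken off (-0.19, adjusted p = 0.0551). Over the 6 lists the medians stood between -0.04 and 0.05, beside 0.01 for all genes.

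**Figure D5:**
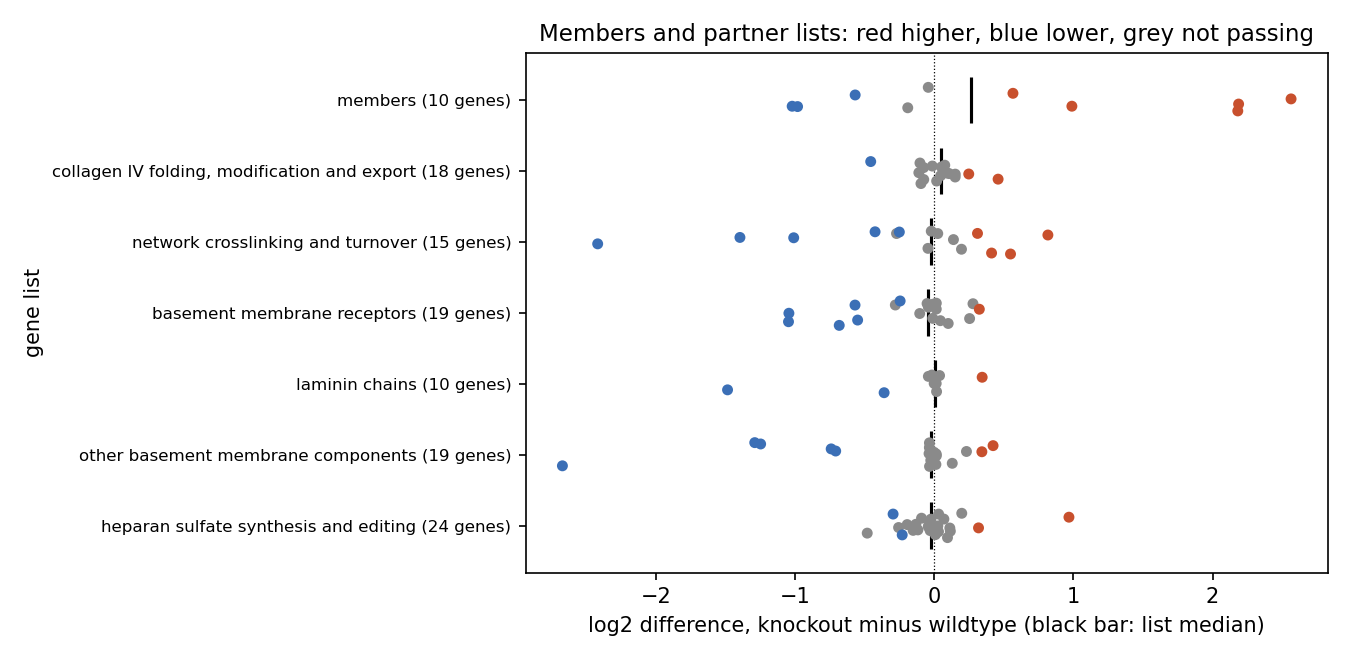
Log2 difference between the lines (horizontal axis, knockout minus wildtype) of the 10 members and of 6 partner lists (vertical axis), 1 point per gene coloured by its call, with a black bar at each list's median. The medians of the partner lists lie between -0.04 and 0.05, and the members' own at 0.26.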

How the data were processed

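Total RNA from 3 wildtype and 3 knockout samples was profiled on Affymetrix arrays, and groups were taken from the sample titles. The authors deposited log2 probe set intensities, which per the submitters' processing notes came from RMA in the Bioconductor package affy 1.44.0. This method corrects background, quantile-normalizes and summarises probes. For the probe definition file and filters, the sources used here give nothing. The summary step can give arrays identical values, which understates spread.

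Gene names came from the platform annotation, updated through RefSeq symbols and synonyms of GRCm38.p6: 31258 of 72688 probe sets named 1 gene, 1492 named several and were left out by name, and 33020 had no symbol there. The probe set with the highest mean was kept for each of 30702 genes. The 23 background probe sets had means from 2.33 to 7.78, and a mean at or below 7.78 is called inside the background range. No detection call was used.

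Knockout was compared with wildtype in limma 3.58.1 (R 4.3.3, lmFit and eBayes, two-sided, no covariate, no filter) over all genes, with Benjamini-Hochberg adjustment at 0.05. Pair comparisons used exact permutation tests (scipy 1.17.1). Errors are SDs over 3 arrays or limma standard errors, and those of the pair comparisons come from the array SDs. The fit was tested on simulated data. Promoter sequences came from RefSeq (8 of 10 members matched, Nid2 and Col4a3 being the others). Alternatives tried were each array left out, the replicate block, array weights, another variance prior, other scalings, filters, probe set choices and chromosome medians taken off.

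The members and lists were chosen with earlier results of these data known. The genes named were the members, up to 3 risen and 3 fallen genes with the largest change of each partner list, label checks and neighbours of the pairs. Members of the lists given as not passing, and Pxdn and the marker genes, were named after their values were seen. Some listed genes are not reported here.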

Additional observations from a re-analysis of the deposited data

How the results depend on the processing

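The 5 genes that rose passed with the same sign under every alternative run, and Col4a5 and Col4a6 fell under every one. The count of members called lower ran from 2 to 4 with single arrays left out, and was 2 at an adjusted p under 0.01. Without 1 array the differences ran from 2.12 to 2.27 for Col4a1, 2.51 to 2.63 for Col4a2, -0.25 to -0.15 for Col4a3, -0.09 to -0.02 for Col4a4, -1.02 to -0.94 for Col4a5, -1.06 to -0.96 for Col4a6, 2.06 to 2.29 for Nid1, 0.95 to 1.01 for Nid2, 0.51 to 0.61 for Agrn and -0.67 to -0.50 for Hspg2, and within the Col4a5 and Col4a6 pair from -0.00101 to 0.0696. Col4a3 passed with array weights (-0.19, adjusted p = 0.018), a fit that gave wildtype replicate 3 a weight of 54.75 and called 10170 genes, and is not relied on. Col4a4 changed sign with chromosome medians taken off (0.0211). Over all genes, calls numbered 3669, against 2232 and 2311 on leaving out knockout replicate 1 or 2, and 2079 on leaving out wildtype replicate 3.

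With the replicate block all differences were the same by construction, 5 members were higher and 3 lower. The main fit did not take the replicate numbers to pair the samples. The deviations of same-numbered arrays correlated at 0.35, 0.28 and 0.04, and those of unlike-numbered arrays at -0.34 to 0.05. Whether same-numbered arrays share a batch was not tested. Each member had 1 probe set, so the choice among probe sets left member values as they were, unlike those of the partner genes Serpinh1, Mia2 and Gpc4. Levels at or near the background range limit Col4a3, Col4a4 and the wildtype values of Nid1, Col4a1 and Col4a2.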
